A study of Mus musculus with 8 samples.

Results

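The genes described here are *Pomc*, which encodes the ACTH precursor, and 7 transcription factors of the corticotroph and wider pituitary endocrine lineage: *Tbx19*, *Pitx1*, *Lhx3*, *Isl1*, *Neurod1*, *Neurod4* and *Insm1*. They were taken as a named list of 8 genes out of 19751 gene symbols on the array, matched through the RefSeq accession of each probe. The list was chosen with earlier results of these data known. All 8 were found, by 9 probes, of which *Neurod1* has a pair. Probes of 7 genes were bright enough to be tested. *Neurod4* was not above background on any array.

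AtT20 is a mouse cell line from a pituitary corticotroph tumor that secretes ACTH. HX630 is a synthetic ligand that activates the retinoid X receptors (RXRs). The cells were kept for 48 hr in medium with stripped serum, either without agonist (control, 4 samples) or with 10 μM HX630 (4 samples). Total RNA of each sample was hybridized to 1 Agilent array in the Cy3 channel only. As all samples come from 1 line, and the labels do not say that they were separate cultures, the p-values measure only the spread between these samples.

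Corticotrophs are the cells of the anterior pituitary that make ACTH, which is cut from the Pomc protein. Tbx19 (Tpit) commits cells to this lineage and acts on the *Pomc* promoter together with the homeodomain factor Pitx1, while Neurod1 binds an E-box of the same promoter. Lhx3 and Isl1 are LIM-homeodomain factors of the early pituitary, Neurod4 is a bHLH relative of Neurod1, and Insm1 is a zinc finger factor of endocrine differentiation.

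The promoters of *Pomc*, of *Tbx19* as its lineage factor, and of *Neurod1*, the only member gene called, are shown as the stretch next to the transcription start, for *Pomc* and for a factor on either side of 0. The 3 sequences are the 250 bases before the RefSeq transcription start on GRCm38.p6, at chr12:3954695-3954944 on the + strand for *Pomc*, chr1:165160774-165161023 on the - strand for *Tbx19* and chr2:79456637-79456886 on the - strand for *Neurod1*. Each is written 5′ to 3′ along its gene, and capitals mark every match to one of 5 motifs searched on both strands, none of which overlapped another here.
Pomc: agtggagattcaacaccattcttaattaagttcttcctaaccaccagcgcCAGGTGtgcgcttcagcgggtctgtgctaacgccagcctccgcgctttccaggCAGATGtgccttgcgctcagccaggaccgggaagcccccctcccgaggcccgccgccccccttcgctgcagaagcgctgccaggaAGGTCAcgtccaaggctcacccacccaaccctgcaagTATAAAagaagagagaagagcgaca
Tbx19: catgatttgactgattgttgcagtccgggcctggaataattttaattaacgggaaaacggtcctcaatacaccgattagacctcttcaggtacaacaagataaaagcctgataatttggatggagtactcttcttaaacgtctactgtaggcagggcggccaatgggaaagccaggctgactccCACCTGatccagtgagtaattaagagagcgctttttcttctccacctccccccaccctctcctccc
Neurod1: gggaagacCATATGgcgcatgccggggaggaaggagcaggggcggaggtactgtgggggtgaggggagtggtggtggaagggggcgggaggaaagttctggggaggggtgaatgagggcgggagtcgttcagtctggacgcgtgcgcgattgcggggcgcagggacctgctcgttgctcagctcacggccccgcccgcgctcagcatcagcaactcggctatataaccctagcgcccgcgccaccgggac

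Counted back from the start, the *Pomc* sequence holds the E-box CANNTG at -200 to -195 and at -147 to -142, the nuclear receptor half-site AGGTCA at -62 to -57 and the TATA box TATAAA at -25 to -20. The *Tbx19* sequence has a single E-box at -66 to -61, and that of *Neurod1* has 1 at -242 to -237. Neither the Pitx-type motif TAATCC nor the T-box half-site TCACACC was found in these 3 windows. Among 32851 mouse promoters cut in the same way, 66.2% held CANNTG, 14% AGGTCA, 12.4% TATAAA, 6.25% TAATCC and 3.33% TCACACC. These matches describe letters only and do not show binding. The sites described for Tbx19, Pitx1 and Neurod1 on the *Pomc* promoter lie further upstream, outside this window, so the E-boxes marked here are not the one ascribed to Neurod1, and the lack of a match says nothing of sites beyond the window. RefSeq promoters were matched for 6 of the 8 genes, without *Pitx1* and *Insm1*.

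The signals are log2 values of the processed intensity minus the 75th percentile of the array, so that a signal of 0 stands for that percentile, and single probes are compared between groups and not with one another. This percentile was 1335 to 1862 intensity units in the control group and 1802 to 1900 in the HX630 group, and no spot was saturated. All control arrays lay on 1 slide with its own scan and all HX630 arrays on another, so in no result can the slide or the scan be told apart from the treatment. Rose and fell are used here for genes called by limma, which took an adjusted p under 0.01 together with more than a 1.5-fold difference (0.58 on the log2 scale). By this rule 19.5% of the 15319 genes tested were called, 8.39% higher and 11.1% lower.

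Of the 7 member genes tested, *Neurod1* rose and none fell by limma or by the methods' t-test. With the fold threshold left aside, all 7 passed the adjusted p, as did 51.2% of all genes. This pass was lost under some other settings, as for *Pomc* with the replicate number as a block (limma, adjusted p = 0.0105). At an unadjusted p under 0.05, which at least 51.2% of all genes passed, the counts were also 4 lower and 3 higher. *Pomc*, *Tbx19*, *Pitx1* and *Lhx3* were lower in HX630-treated cells, by 0.32 to 0.45 on the log2 scale. By the adjusted p alone, 27.1% of all genes were lower. *Neurod1*, *Insm1* and *Isl1* were higher, where 24% of all genes were. The 4 HX630 arrays lay entirely outside the range of the 4 control arrays for each of the 7, which also held for 61.5% of all genes. With scaling to the spike-ins the groups overlapped for *Pomc* and *Pitx1*.

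**Figure D1:**
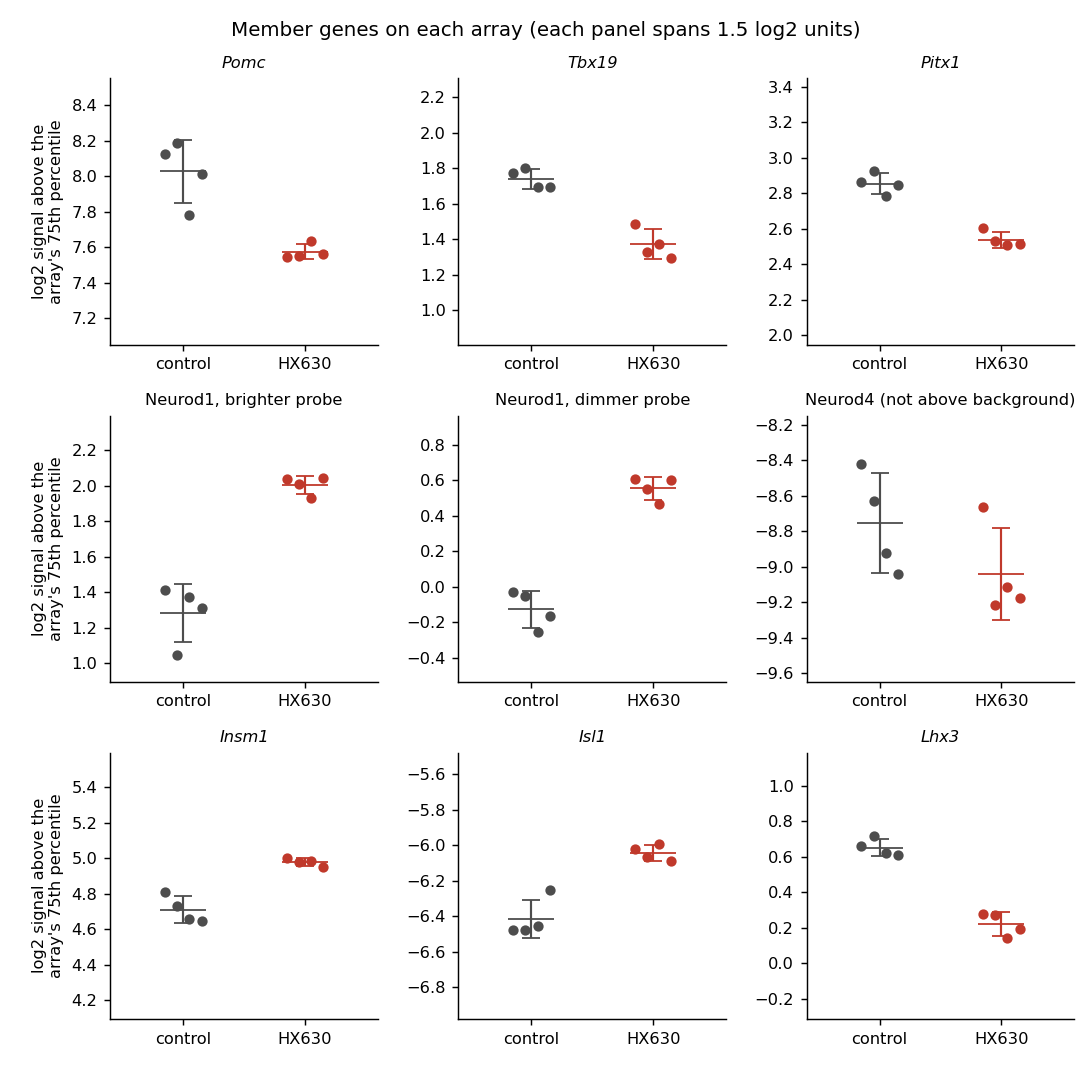
Log2 signal of each member probe above the 75th percentile of its array, on the 4 control arrays (grey) and the 4 HX630 arrays (red); points are arrays, wide bars are means and whiskers are SDs, and every panel spans the same height. The groups are apart in all panels but *Neurod4*, with the widest gap, 0.52, for the brighter *Neurod1* probe.

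*Pomc* gave log2 signals of 8.13, 8.19, 7.78 and 8.01 on the control arrays and of 7.55, 7.55, 7.63 and 7.56 on the HX630 arrays. All HX630 arrays were lower than all control arrays, and the control arrays were the more scattered. The means were 8.03 ± 0.18 (SD, n = 4) and 7.57 ± 0.041 (SD, n = 4), a difference of -0.45 on the log2 scale with a standard error of 0.086 and a 95% interval of -0.65 to -0.25 (limma, adjusted p = 0.00241). *Pomc* in HX630-treated cells was thus at 73.0% of the control, short of the 1.5-fold threshold, and 31.5% of all genes differed by at least as much. The two-sided exact permutation p was 0.0286, the smallest that 4 against 4 arrays allow. In such bulk RNA, fewer cells with the transcript and less of it per cell cannot be told apart.

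The *Pomc* probe was the 5th brightest of the 28552 probes tested and lay near the top of the intensity range, at 80.1% to 93.8% of the brightest spot of its array. Before scaling, its intensity ranged from 373171 to 434584 in control cells and from 336676 to 363341 in HX630-treated cells. These ranges were also apart, but by less. The unscaled difference, calculated after the data were seen, was -0.20 on the log2 scale (limma, adjusted p = 0.162), and control replicate 3, whose 75th percentile of 1862 was the highest among the controls, had the lowest scaled *Pomc* signal. The part of this narrow range and of the scaling in the *Pomc* result was not tested.

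**Figure D2:**
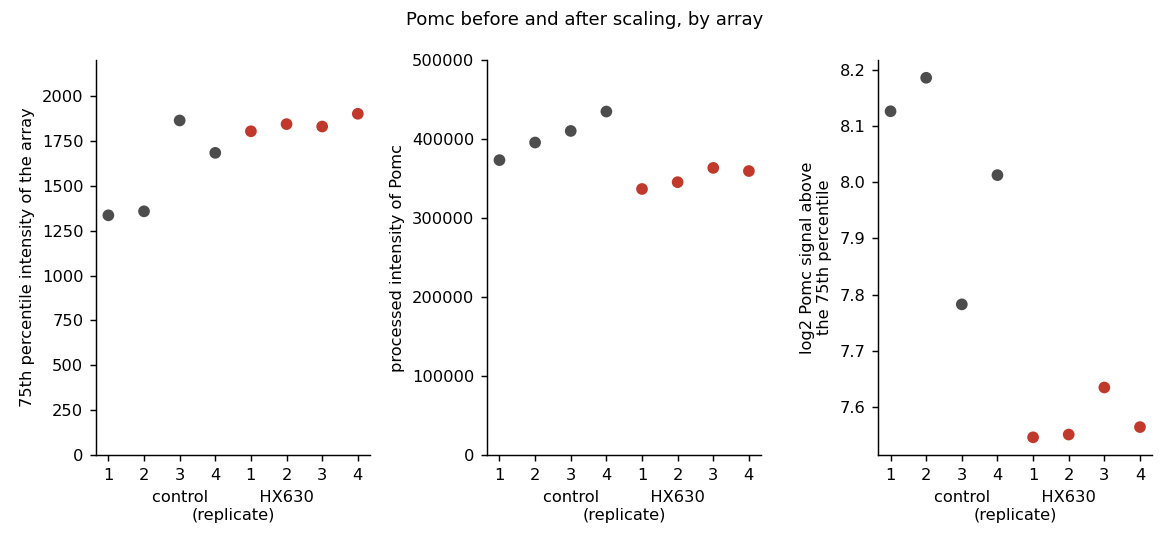
From left to right, the 75th percentile of each array, the processed intensity of the *Pomc* probe and its log2 signal after scaling, for the 4 control (grey) and 4 HX630 (red) arrays. The first 2 axes start at 0 and the third does not; the *Pomc* intensity is lower on each HX630 array than on each control array before scaling and after it.

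The size of the *Pomc* difference depended on how the arrays were set to one scale, and on the intensity that was read. It was -0.37 with the median of each array and -0.19 with quantile normalization (adjusted p = 0.00204). When the arrays were scaled to spike-in RNAs added in known amounts, it was -0.22 (adjusted p = 0.058), and the groups overlapped (exact permutation p = 0.0857). Normexp background correction gave -0.29 (adjusted p = 0.0371), but it took the median spot intensity in place of the processed intensity. Input and correction thus changed together, and their parts were not told apart. Scaling to the spike-ins moved the median of all genes up by 0.23, from -0.034. Relative to that median, *Pomc* was at -0.42 under both, as 1 constant per array moves all genes alike, while it was at -0.22 with quantile normalization and at -0.20 with normexp, which can change that value.

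*Tbx19*, the T-box factor of the lineage, had signals of 1.77, 1.80, 1.69 and 1.69 on the control arrays and of 1.49, 1.33, 1.37 and 1.30 on the HX630 arrays. The groups were separated by 0.20. The means were 1.74 ± 0.054 and 1.37 ± 0.084 (SD, n = 4), a difference of -0.37 (SE 0.052, adjusted p = 5.08e-04), which put *Tbx19* at 77.5% of the control.

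*Pitx1*, the homeodomain partner of Tbx19, had signals of 2.86, 2.93, 2.78 and 2.85 in control cells and of 2.61, 2.53, 2.51 and 2.52 in HX630-treated cells. Again no HX630 array reached the lowest control. The difference was -0.32 (SE 0.043, adjusted p = 4.08e-04), or 80.4% of the control.

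*Lhx3*, which is needed for the anterior pituitary to form, was measured at 0.66, 0.72, 0.62 and 0.61 on the control arrays and at 0.28, 0.28, 0.14 and 0.19 on the HX630 arrays. Its groups were 0.33 apart. The difference was -0.43 (SE 0.045, adjusted p = 9.91e-05), or 74.2% of the control, and its interval of -0.54 to -0.33 did not reach the fold threshold.

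These 3 factors kept their direction when the arrays were scaled to the spike-ins, but none passed the adjusted p, with *Tbx19* at -0.14 (adjusted p = 0.0358), *Pitx1* at -0.083 (adjusted p = 0.235) and *Lhx3* at -0.20 (adjusted p = 0.0158). For *Pitx1* the groups then overlapped (exact permutation p = 0.143). Relative to the median of all genes they were at -0.33, -0.28 and -0.40 under both scalings, which could not differ in this, and at -0.40, -0.14 and -0.36 with normexp.

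*Neurod1*, the bHLH factor that acts on the *Pomc* E-box, rose in HX630-treated cells. Its brighter probe had signals of 1.41, 1.05, 1.37 and 1.31 on the control arrays and of 2.04, 2.01, 1.93 and 2.04 on the HX630 arrays. Its lowest HX630 array was 0.52 above its highest control. The difference was 0.72 (SE 0.081, 95% interval 0.53 to 0.91, adjusted p = 1.44e-04), which is a 1.65-fold higher level.

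The dimmer *Neurod1* probe gave the same picture, with signals of -0.032, -0.053, -0.26 and -0.17 against 0.61, 0.55, 0.47 and 0.60. It rose by 0.68 on the log2 scale (SE 0.061, adjusted p = 3.96e-05), or 1.61-fold. *Neurod1* stayed called under all 26 alternative settings tried, with a difference of 0.64 to 0.98.

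*Insm1* was higher on the HX630 arrays, at 5.00, 4.98, 4.99 and 4.95, than on the control arrays, at 4.81, 4.73, 4.66 and 4.65. The groups were 0.14 apart, the narrowest gap of the 7 genes. The difference was 0.27 (SE 0.044, adjusted p = 0.0011), or 120% of the control, short of the fold threshold.

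*Isl1* was dim. It had signals of -6.48, -6.48, -6.45 and -6.25 in control cells and of -6.02, -6.06, -5.99 and -6.09 in HX630-treated cells. The probe was well above background on all 8 arrays, but its processed intensity was only 15.0 to 22.1 in control and 27.6 to 28.7 in HX630-treated cells, beside a local background of 17 to 30. The difference of 0.37 (SE 0.058, adjusted p = 8.78e-04) turned to -0.30 with normexp background correction (adjusted p = 0.3) and passed the fold threshold, at 0.61, with scaling to the spike-ins. With quantile normalization *Isl1* was at 0.55 and missed the adjusted p (limma, 0.0131).

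*Neurod4* had signals of -8.42, -8.63, -8.93 and -9.04 on the control arrays and of -8.66, -9.22, -9.12 and -9.17 on the HX630 arrays, none of them well above background. No fold change is given for it.

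**Figure D3:**
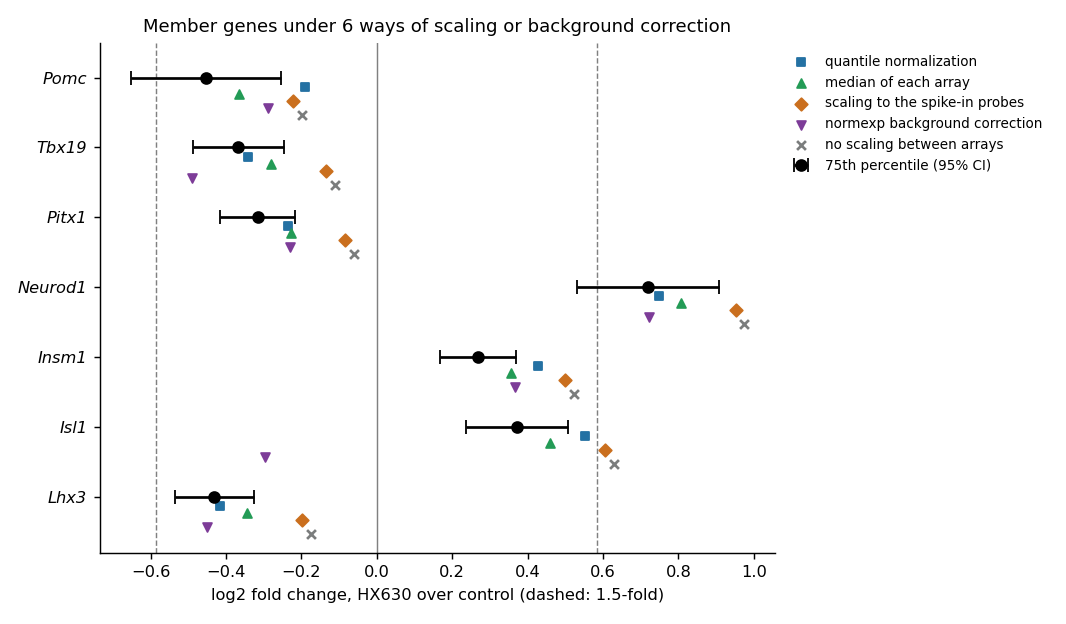
Log2 fold change of HX630 over control for the 7 member genes tested, as black points with 95% intervals for the 75th percentile scaling and as colored symbols for 5 other ways of scaling or correcting the arrays; dashed lines mark 1.5-fold. *Neurod1* lies beyond the threshold in each, *Pomc*, *Tbx19*, *Pitx1* and *Lhx3* lie on the lower side in each, and *Isl1* crosses to -0.30 with normexp.

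The median of all 15319 genes was -0.034, and the absolute difference had a median of 0.28 against 0.37 over the 7 member genes.

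**Figure D4:**
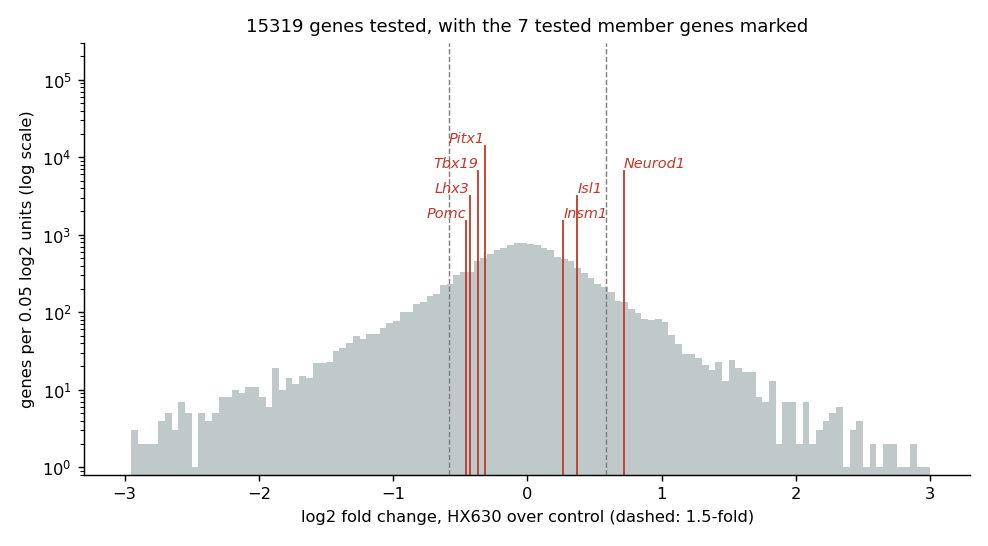
Histogram of the log2 fold changes of the 15319 genes tested, in steps of 0.05 and with a log scale on the vertical axis, of which the 15244 between -3 and 3 are drawn. Red lines mark the 7 member genes, with *Pomc* at -0.45 and *Neurod1* at 0.72; the height of a red line carries no value.

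The 5 genes whose signals lay closest to those of *Pomc* over the 8 arrays, each gene centred on its own control mean, were *Gm12070*, *Gapdh*, *Gm5523*, *Milr1* and *Cox6a1*, with root mean square differences of 0.026 to 0.055 among 14307 genes compared. Their differences between the groups were -0.50 to -0.39. All 5 were bright, with ranks of 11 to 38 among the probes tested. The set depended on the processing, as 0 of these 5 were among the nearest with quantile normalization and 3 with normexp. Of the other member genes, *Lhx3* had rank 301 in likeness, *Tbx19* rank 466 and *Pitx1* rank 791, while *Insm1*, *Isl1* and *Neurod1*, which were higher with HX630, had ranks 10331, 11498 and 13242.

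Of 15 other regulators of *Pomc* tested, 5 fell and none rose, by limma and by the methods' t-test alike, with a median of -0.33. At the adjusted p alone 7 were lower and 5 higher, where 27.1% and 24% of all genes were. At an unadjusted p under 0.05, which at least 51.2% of all genes passed, the counts were the same. *Nr4a1* (Nur77), an orphan nuclear receptor that activates *Pomc*, had signals of 3.75 to 3.89 in control cells and of 0.31 to 0.89 in HX630-treated cells. It fell by 3.33 on the log2 scale (SE 0.13, adjusted p = 5.67e-07), to 9.93% of the control. Its relative *Nr4a2* (Nurr1) fell by 1.89 (SE 0.059, adjusted p = 2.55e-07) on 1 probe, while on another it fell by 2.11 (adjusted p = 2.35e-07).

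*Nr4a3* was well above background on all control arrays, with a mean of -5.71, and on no HX630 array, with a mean of -8.79. It was at least 2.56-fold lower with HX630. For this bound the control mean was set against the lowest signal of any probe well above background on each HX630 array. The probe's own signal was taken where that was higher. The bound was not tested. The adjusted p of 2.57e-06 (limma) is that of the fitted difference of -3.08, which takes HX630 signals at background. The probe passed the filter through the control arrays alone. *Smad3*, a mediator of TGF-β signals, fell by 0.89. *Nr3c1*, the glucocorticoid receptor through which steroids restrain *Pomc*, was higher by 0.43 (SE 0.061, adjusted p = 5.37e-04) on one probe and by 0.32 on the other (adjusted p = 0.0128), both short of the fold threshold.

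Of 17 genes tested among the neuroendocrine bHLH and zinc finger factors and their partners, 3 rose and 4 fell, with a median of 0.025. *Neurod2*, the close relative of *Neurod1*, had signals of -0.23 to 0.044 in control cells and of 0.72 to 0.94 in HX630-treated cells. It rose by 0.95 (SE 0.071, adjusted p = 1.46e-05), a 1.93-fold difference. *St18*, a zinc finger factor, rose by 0.71 (adjusted p = 1.97e-04). *Insm2* rose by 0.69 with wide scatter (SE 0.17, adjusted p = 0.0086), a call that was lost with normexp (0.19) and when any array but control replicate 1 was left out (0.60 to 0.72).

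The Id proteins are inhibitors of bHLH factors. *Id2* fell by 1.76 on the log2 scale (SE 0.037, adjusted p = 7.90e-08), to 29.6% of the control, and *Id3* fell by 0.87 (SE 0.12, adjusted p = 5.41e-04). *Rest*, a repressor of neuronal genes, was not tested, as its 2 probes were well above background on 1 control array and on none.

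Among 18 LIM factors and their cofactors, 1 rose and 1 fell, with a median of -0.053. *Lhx4*, the nearest relative of *Lhx3*, had signals of -5.45 to -5.14 in control cells and of -4.25 to -4.07 in HX630-treated cells. It rose by 1.19 (SE 0.080, adjusted p = 8.08e-06), and was at 0.56 with normexp (adjusted p = 0.0428). *Lmo3*, the gene that fell, was well above background on all control arrays and on no HX630 array, with means of -5.98 and -7.33. It passed the filter through the control arrays alone. It was at least 2.01-fold lower by the same kind of bound, which was not tested. The adjusted p of 4.59e-04 (limma) is that of the fitted difference of -1.35, which takes HX630 signals at background. With normexp *Lmo3* was at -0.91 and was not called (adjusted p = 0.0102).

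None of the 10 T-box and Pitx relatives tested was called by limma or by the methods' t-test, with a median of -0.047. At an unadjusted p under 0.05, which at least 51.2% of all genes passed, 2 were higher and 4 lower by limma. Of 11 other factors of pituitary development, 1 rose and 2 fell. *Six6*, a homeobox factor of the eye and pituitary, had signals of -0.62 to -0.58 in control cells and of 1.06 to 1.13 in HX630-treated cells, and rose by 1.69 (SE 0.031, adjusted p = 6.74e-08), a 3.23-fold difference. *Sox2*, a factor of pituitary progenitors, fell by 1.23 (SE 0.067, adjusted p = 2.68e-06).

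**Figure D5:**
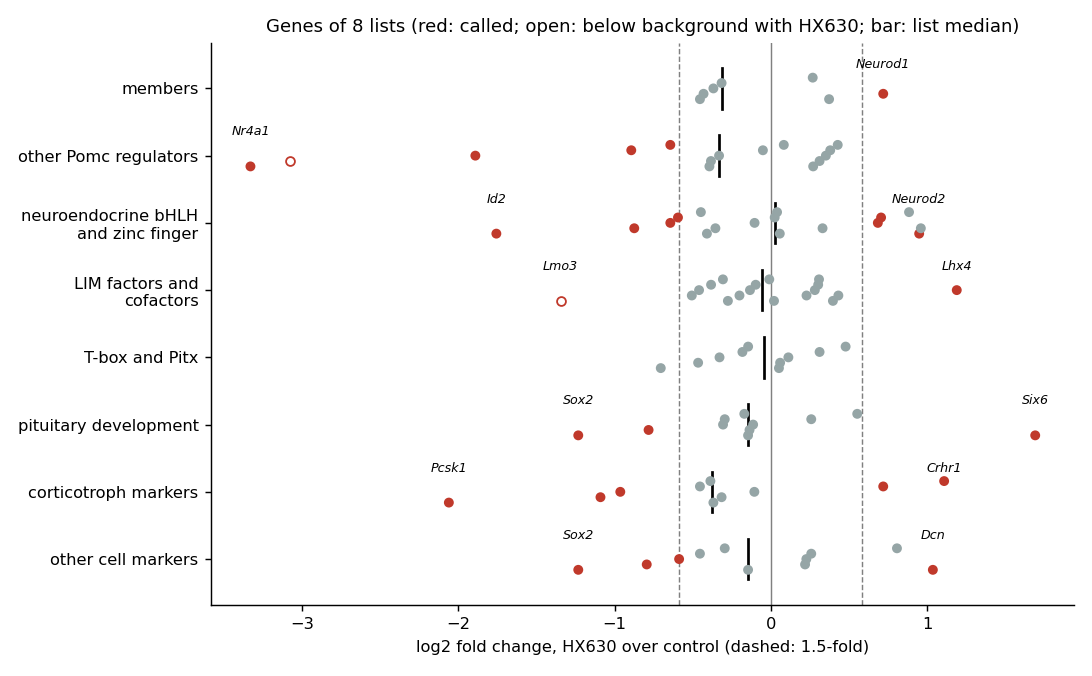
Log2 fold change of HX630 over control for each tested gene of the 8 lists, with called genes in red, genes below background on all HX630 arrays as open circles at their fitted value, list medians as black bars and 1.5-fold as dashed lines; the vertical scatter within a list carries no value. The member genes stay between -0.45 and 0.72, while *Nr4a1* reaches -3.33 and *Six6* 1.69.

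Markers of the labelled cell type were present. Of 11 corticotroph markers, *Pomc*, *Tbx19*, *Pitx1* and *Neurod1* included, 10 were well above background on every array, and the vasopressin receptor gene *Avpr1b* was on none. Among the 10, *Crhr1* and *Neurod1* rose and *Pcsk1*, *Scg5* and *Cpe* fell. *Pcsk1*, the protease that cuts Pomc to ACTH, fell by 2.06 (SE 0.052, adjusted p = 1.26e-07), from signals of 6.07 to 6.23 to signals of 4.01 to 4.19. *Scg5*, a chaperone of prohormone processing, fell by 1.09 (adjusted p = 6.67e-07), and *Cpe*, which trims peptide ends, by 0.96 (adjusted p = 3.19e-05). *Crhr1*, the receptor for the hypothalamic hormone that drives ACTH release, rose by 1.11 (SE 0.042, adjusted p = 5.13e-07), a 2.16-fold difference. The summed linear signal of the list, which its few brightest probes carry, in multiples of the 75th percentile, was 740 to 906 on the control arrays and 539 to 561 on the HX630 arrays.

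Of 19 marker genes of other cells, 8 were well above background on every array and 6, among them *Prl*, *Tshb* and *Cga*, on none. Their summed signal was 1.18 to 1.48 on the control arrays and 0.828 to 0.968 on the HX630 arrays. The brightest probe in this sum, that of *Sox2*, had mean log2 signals of -0.82 in control and -2.05 in HX630-treated cells. The sum thus does not stand for each gene, and of the 11 tested, 1 rose and 3 fell. Each sum is compared between the groups only, as sums over different probes cannot be set against each other. *Sox2* fell as given above, and *Gh* fell by 0.79 (adjusted p = 6.05e-04), though it was at -0.56 with scaling to the spike-ins. *Pecam1* fell by 0.59, only just past the fold threshold, and was not called with scaling to the spike-ins (-0.36), the median of each array (-0.50), quantile normalization (-0.52) or the 75th percentile of detected probes (-0.57), or without control replicate 1 (-0.55), HX630 replicate 2 (-0.56) or HX630 replicate 3 (-0.57). *Dcn* rose by 1.04 (SE 0.24, adjusted p = 0.00708), a call lost with normexp (0.16) and when any array but control replicate 1 was left out (0.85 to 1.11). The part of these genes in the results above was not tested.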

How the data were processed

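RNA of 4 control and 4 HX630-treated AtT20 samples was read on 8 one-color Agilent arrays. The authors deposited the Feature Extraction 10.7.3.1 output, whose processed intensities are background-subtracted and carry no scaling between arrays. They also deposited log2 values, which matched log2 processed signals reduced by the 75th percentile of their array.

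R 4.3.3 and limma 3.58.1 were used. Control spots (1377 of 44397) and outlier spots were left out, spots of a probe were averaged (39429 probes) and the 75th percentile of the array was subtracted. Probes well above background on at least 4 of 8 arrays were tested (28552) with lmFit and eBayes, without a block, and Benjamini-Hochberg adjustment over all of them. A gene was represented by its brightest tested probe. Symbols came from RefSeq accessions on GRCm38.p6, for 26055 probes. The exact permutation test was two-sided over all 70 regroupings. Lists were counted and not tested.

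Named genes were the 8 member genes, up to 6 called genes of each list with the largest differences, *Nr4a1*, *Nr4a2*, *Nr3c1*, *Pcsk1*, *Crhr1* and *Rest*, and the 5 genes most like *Pomc*. Of these, 2 are not reported here. The member genes and lists were chosen with earlier results of these data known. On simulated data, 74.5% of 200 probes changed by 1 on the log2 scale were recovered among 28552, with 2 false calls. That change is larger than the difference of any member gene, and far fewer probes were changed than passed here. These rates thus do not carry over to the member genes. The number of arrays limits the precision. Alternatives covered scaling, background correction, filters, variance models, the methods' t-test, thresholds, the replicate block and each array left out. Normexp was run on the median spot intensity, with an offset of 16. The values without scaling between arrays were added after the data were seen. The other experiments of the study are not analysed here.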

Additional observations from a re-analysis of the deposited data

Results flagged for a closer look

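Single arrays stood apart from the other 3 of their group in 3 of 62 groups looked at, by a Dixon test at the 95% level, where chance gives about 1 in 20 (3.1 of 62). For *Isl1*, control replicate 4 was at -6.25 and the others at -6.48 to -6.45, with a gap of 0.892 of the whole range. For *Insm2*, HX630 replicate 1 was at -4.07 against -4.37 to -4.34 (0.897). For *Gh*, HX630 replicate 4 was at -5.64 against -5.98 to -5.93 (0.857). All 3 probes were dim.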

How the results depend on the processing

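*Neurod1* was called under each of the 26 alternatives, and the other 6 member genes tested kept their direction under each, except *Isl1*, which turned to -0.30 with normexp (exact permutation p = 0.343). With scaling to the spike-ins, 2 member genes were called higher (*Neurod1* and *Isl1*), none was lower at the adjusted p alone, 4344 probes were called higher and 1870 lower, against 2133 and 3179, and 15 genes of the lists other than member genes were called higher, against 7. Without scaling between arrays, chosen after the data were seen, these counts were 2, 0, 4716, 1769 and 18. Without a fold threshold, 3 member genes were called higher and 4 lower, 5763 probes higher and 7235 lower, and 21 and 31 genes of the lists, against 7 and 16. Normexp called 1355 probes higher. At the adjusted p alone, 2 member genes were higher, against 3, with quantile normalization, with normexp and with the trended and robust variance model. Leaving out each array in turn gave 1 member gene higher and 0 lower, 3 and 4 at the adjusted p alone, 1944 to 2568 probes higher, 2878 to 3364 lower, 5 to 10 and 14 to 16 genes of the lists, and 2 to 5 shared genes most like *Pomc*, the 2 without control replicate 3, against 0 with quantile normalization and 3 with normexp.

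Samples with the same replicate number had deviations that correlated at 0.52, -0.012, 0.24 and 0.38, and 5 of 8 arrays correlated best with their own number. As 1 of the 4 pairs did not deviate together and the labels name nothing shared by a number, the numbers were not taken to pair the samples, though 3 pairs hint at it. With the replicate number as a block, 2213 probes were called higher and 3342 lower, and 1 member gene was called, while *Pomc* missed the adjusted p (0.0105).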

Other observations

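*Tcf4*, a partner of bHLH factors outside the rule for named genes and chosen here after its values were seen, was lower by 0.59 on its brighter probe, a call at an adjusted p of 9.49e-06, while its dimmer probe was at -0.10 (adjusted p = 0.312).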
